A study of Mus musculus with 30 samples.

Results

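Discs of LG/J mice at 6 months of age (6M) were compared with discs of C57BL/6 (BL6) mice of the same age, in 4 LG/J and 7 BL6 arrays out of 30 arrays in the series. Both are inbred mouse strains, and the labels name no engineered allele and no treatment. LG/J mice, a strain selected for large body size and known for good cartilage repair, came from a repository of inbred strains, and BL6 mice came from a colony kept for ageing research. Each array held RNA of nucleus pulposus (NP) tissue pooled over the caudal discs of 1 animal, so the arrays are separate mice. The comparison covered 19505 genes, chosen as the rows of the deposited log2 table that named exactly 1 gene symbol, with the brightest row kept where a gene had several. The 6 SM/J arrays, whose labels give an age range ending at 6M and not a single age, shared the estimate of spread. A further 6 LG/J and 7 BL6 arrays of separate mice at 23 months (23M) gave the same strain comparison at a later age. A difference is given throughout as LG/J minus BL6 on the log2 scale with its standard error. A gene is called when limma's moderated test gave an adjusted p under 0.05 (Benjamini-Hochberg over all genes) and the difference was at least 2-fold.

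The nucleus pulposus is the gel-like core of the intervertebral disc. Its cells descend from the embryonic notochord and live far from blood vessels, so they depend on glycolysis and on the hypoxia response. They secrete aggrecan, the large charged proteoglycan whose bound water carries the load on the spine, and they hold few immune cells when the tissue is healthy. TGF-β and BMP signalling governs much of their matrix synthesis, and interferon signalling is the defence that most cells can mount against viruses.

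Arrays of the same strain correlated at 0.985 or more over all genes, against 0.967 to 0.976 between LG/J and BL6 arrays, and the first principal component of the 11 arrays (58.2% of the variance) set the strains apart. The sample titles at 6M carry 1 date-like string for each strain, whose meaning the labels do not give, so strain and whatever that string marks cannot be told apart, and whether the probes match both genomes equally was not tested. The mean of Y-linked genes was 3.28 to 3.70 on the LG/J arrays, against 3.52 to 3.77 on BL6 arrays 1 to 4 and 9.19 to 9.45 on BL6 arrays 5 to 7. The mean of 21 granulocyte markers was 4.39 to 4.96 on the LG/J arrays, against 5.67 to 8.01 on the BL6 arrays, without overlap. Some results below are also given from a model with this granulocyte level as a covariate. Because the level did not overlap between the strains, that model separates it poorly from strain. A call lost there can follow from lower precision alone and is no measure of blood cell content. Negative control probes lay at a median of 5.88 in LG/J and 6.01 in BL6, and a gene below its strain's level is described here as not above the negative controls.

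Of 17 NP markers 1 was called higher and 1 lower in LG/J, which is 11.8% against 8.15% of all genes called, and the median difference of the list was 0.00, against -0.10 over all genes. Car3, a carbonic anhydrase abundant in NP cells, read 19.38, 19.46, 19.44 and 19.50 in LG/J, against 19.20, 19.33 and 19.40 (lowest, median and highest) in BL6. Slc2a1, the glucose transporter GLUT1, read 18.81, 18.64, 18.70 and 18.60 in LG/J, against 18.33, 18.47 and 18.67 in BL6. The ranges of both genes overlapped, and so did those of Krt8, a notochordal keratin (difference -0.14 ± 0.18), and Cd24a, a notochordal surface protein (-0.08 ± 0.15). Acan, which encodes aggrecan, lay at 18.42 to 18.62 in LG/J and 17.64 to 18.15 in BL6 without overlap, a difference of 0.66 ± 0.13 that stayed under 2-fold (adjusted p = 0.00044). Krt18 (-0.94 ± 0.26) and Krt19 (-0.67 ± 0.19) were non-overlapping and lower in LG/J, likewise under 2-fold. Foxa2, a notochordal transcription factor, was the marker called higher, at 7.16, 7.69, 8.10 and 7.65 in LG/J, against 5.70, 6.40 and 7.18 in BL6 (1.18 ± 0.24). Its partner Foxa1 read 4.88, 6.37, 6.22 and 6.35 in LG/J, against 4.93, 5.37 and 5.98 in BL6, and was not called. The marker called lower, Basp1, was not above the negative controls in either strain. Both calls were lost with the granulocyte level in the model (0.98, adjusted p = 0.272 for Foxa2 and -1.13, 0.056 for Basp1). The notochordal factor Noto lay close to the negative controls in both strains, at 6.34 and 6.51 on average, and Car12 was not above them.

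LG/J discs had higher signal for 492 genes and lower signal for 1097, which is 2.52% and 5.62% of the genes tested. The arrays of the strains did not overlap for 1490 of the 1589 called genes. Calling selects genes whose difference is large against their spread, so this count is largely built in. The share over all genes is not given here. Among the called genes, 69 were at least 4-fold higher and 221 at least 4-fold lower. The share of called genes that were higher was 31.0%, and 40.3% after quantile normalization. It was 47.1% when each array was first centred on its median, which moved the median difference of all genes by 0.15. Many calls concerned dim genes: 285 of the genes called lower and 41 of those called higher were not above the negative controls in either strain. A model with the granulocyte level called 1020 genes and shared 749 with the original calls. In tissue RNA, fewer cells of a type and less RNA per cell cannot be told apart.

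**Figure D1:**
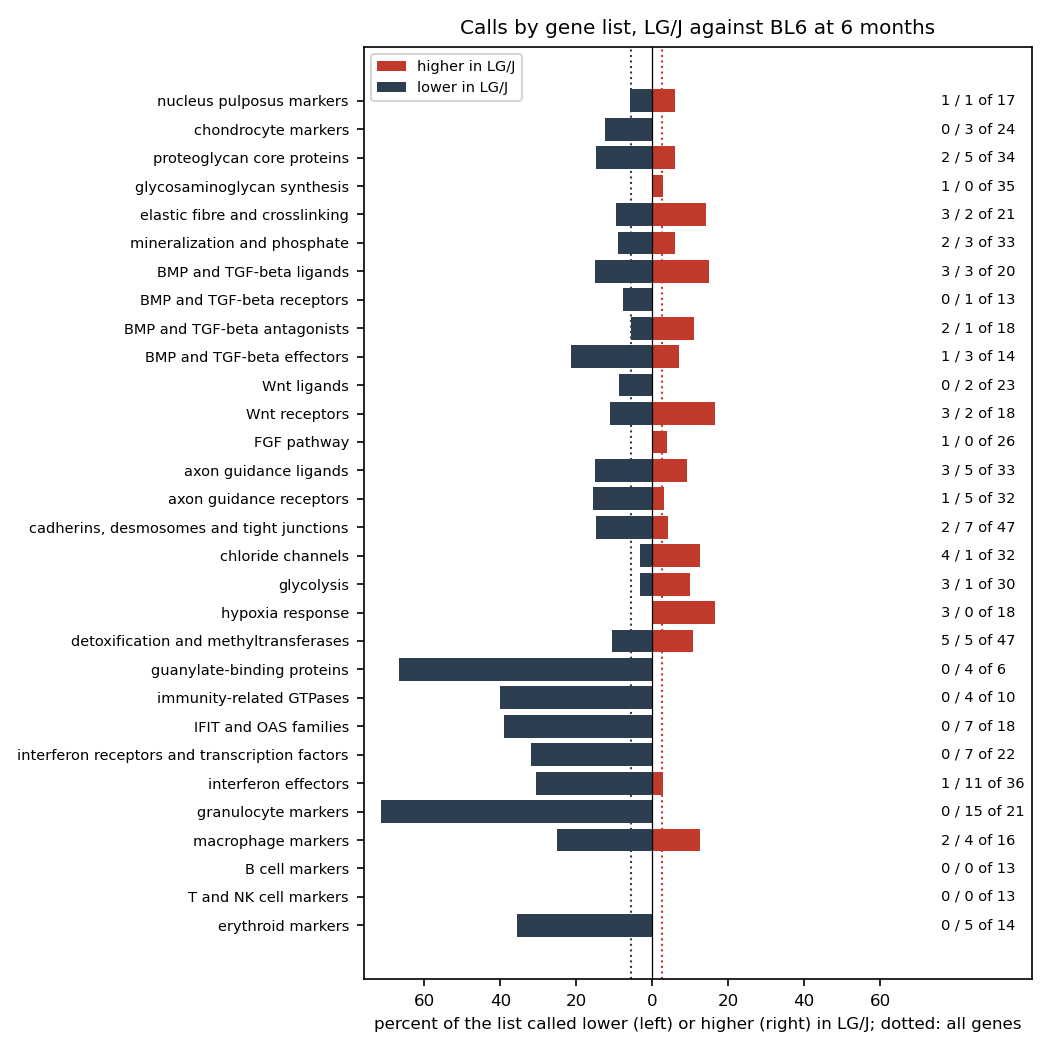
Bars give the percent of the tested members of each gene list that were called higher (right, red) or lower (left, dark) in LG/J than in BL6 at 6M, with the counts as higher / lower of tested, and dotted lines mark the percent of all genes (2.52% higher, 5.62% lower). Guanylate-binding proteins (4 of 6) and granulocyte markers (15 of 21) have the longest bars on the lower side of the lists drawn, and no B cell or T and NK cell marker was called.

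The largest single differences were close to presence against absence of a signal. Inmt, an enzyme that methylates indole amines, read 4.57, 4.89, 4.30 and 4.39 in LG/J, against 16.73, 16.93 and 17.58 in BL6. Its LG/J arrays were not above the negative controls, which makes Inmt at least 2180-fold lower in LG/J (adjusted p = 7.34e-18). Mtarc1, a mitochondrial enzyme that reduces N-oxygenated compounds, was the mirror image, at 11.33, 11.46, 11.35 and 11.35 in LG/J, against 3.71, 3.98 and 4.20 in BL6. Here the BL6 arrays were not above the negative controls, and Mtarc1 was at least 41.0-fold higher in LG/J. Clic5, a chloride intracellular channel protein that links membranes to actin, read 12.92, 13.26, 13.73 and 13.23 in LG/J, against 5.87, 6.15 and 6.37 in BL6 (7.15 ± 0.27). Zbtb8b, a zinc finger protein, read 12.14 to 12.35 in LG/J and 5.22 to 7.25 in BL6 (5.96 ± 0.41). None of these pairs of ranges came near each other.

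The 15 genes with the largest rise also held a pair of enolases. Eno1b and Eno2, which encode enolases of the glycolytic pathway, were 4.79 ± 0.12 and 4.50 ± 0.24 higher. The Eno1b arrays lay within 12.36 to 12.47 in LG/J and within 7.55 to 7.74 in BL6, and Eno2 read 9.90 to 11.36 in LG/J and 5.71 to 6.28 in BL6. Eno3, the muscle enolase, read 6.52 to 6.81 in LG/J and 6.36 to 7.07 in BL6, overlapping, and Eno1 itself was not used here. Tbc1d9, of a family that regulates Rab GTPases, was 5.09 ± 0.22 higher. Camk2b, a subunit of calcium and calmodulin dependent kinase II (3.55 ± 0.21), and Pdlim4, an actin-associated LIM protein (3.22 ± 0.24), rose as well. Mapk4, an atypical MAP kinase (at least 3.16-fold), Gnal, a stimulatory G protein subunit (at least 4.17-fold), and Adgrl1, a latrophilin receptor (at least 3.71-fold), were measured above the negative controls only in LG/J.

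On the lower side, Fam135b read 5.97, 6.34, 6.41 and 6.25 in LG/J, against 12.22, 12.95 and 13.41 in BL6 (-6.68 ± 0.23). Man2b1, the lysosomal α-mannosidase that trims glycans from glycoproteins, read 9.49, 9.22, 9.33 and 9.11 in LG/J, against 15.15, 15.42 and 15.71 in BL6 (-6.10 ± 0.17). Pttg1, which encodes securin, the inhibitor of sister chromatid separation, read 7.43, 6.56, 6.98 and 6.79 in LG/J, against 12.58, 12.69 and 12.86 in BL6 (-5.74 ± 0.21). All 3 were non-overlapping by wide margins. Cck, the peptide hormone cholecystokinin, fell by 5.09 ± 0.23. Dab1, the adaptor of reelin signalling, was at least 34.3-fold lower, Slc7a8, an amino acid transporter, at least 16.4-fold, and Tenm3, a teneurin adhesion protein, at least 13.4-fold, in each case with LG/J arrays not above the negative controls. The granulocyte genes Ngp, S100a8 and Retnlg and the guanylate-binding proteins Gbp2 and Gbp7 were also among the 15 genes with the largest fall.

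**Figure D2:**
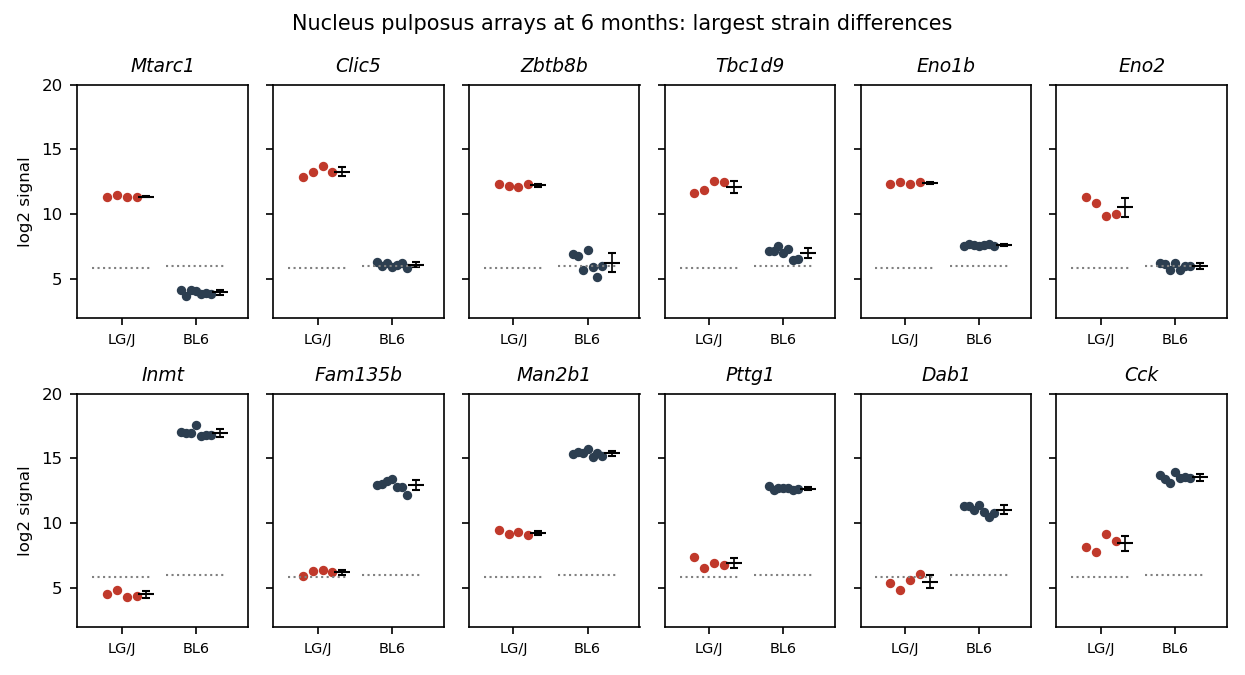
Each panel gives the log2 signal of 1 gene at 6M, with 1 point per array (LG/J left, 4 arrays; BL6 right, 7 arrays), the mean and SD beside the points, and the negative control level of each strain as a dotted line. The strains do not overlap in any of the 12 panels, and Inmt in LG/J and Mtarc1 in BL6 lie below the dotted lines.

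Of 134 genes in 7 lists of the interferon system (MHC class I included), 42 were lower and 1 was higher in LG/J, against 5.62% and 2.52% of all genes. Interferons are secreted antiviral signals. Their receptors act through STAT and IRF transcription factors on promoters that carry an interferon-stimulated response element (ISRE), and the induced genes sense foreign nucleic acid, block viral replication or attack intracellular parasites. The ISRE was searched as TTTCNNTTTC or, on the other strand, GAAANNGAAA, from 250 bases before to 50 bases after the start of each gene. Shares are over genes with a promoter sequence. The ISRE was present in 21 of 38 interferon-list genes that were lower in LG/J (55.3%) and in 24 of 68 list members that were not called (35.3%). Of all 27025 genes with a promoter, 3.99% carried it. Matches of the same letters occurred in 52 of 873 genes called lower (5.96%) and in 22 of 369 called higher (5.96%). The lists were made of known interferon targets, so these shares are a description. A promoter each of a guanylate-binding protein, an IFIT protein, an immunity-related GTPase and the tether protein Bst2 follows, because these genes had the largest falls of their lists. The sequences are RefSeq's, from GRCm38.p6 (Gbp2 chr3:142620413-142620712, Ifit3 chr19:34583279-34583578 and Irgm2 chr11:58214727-58215026, on the + strand; Bst2 chr8:71537423-71537722, on the - strand), 5′ to 3′ along the gene, with the ISRE letters in capitals.
Gbp2: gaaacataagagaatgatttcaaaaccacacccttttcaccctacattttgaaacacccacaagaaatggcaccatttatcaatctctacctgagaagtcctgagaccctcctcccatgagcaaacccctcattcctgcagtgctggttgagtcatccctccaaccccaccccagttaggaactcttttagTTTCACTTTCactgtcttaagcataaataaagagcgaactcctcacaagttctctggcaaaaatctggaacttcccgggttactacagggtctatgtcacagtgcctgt
Ifit3: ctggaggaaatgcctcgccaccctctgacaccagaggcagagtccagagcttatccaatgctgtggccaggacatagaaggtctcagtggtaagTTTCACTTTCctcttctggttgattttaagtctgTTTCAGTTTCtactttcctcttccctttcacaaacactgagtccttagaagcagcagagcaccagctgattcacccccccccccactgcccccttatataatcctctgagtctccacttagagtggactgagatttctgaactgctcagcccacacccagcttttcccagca
Irgm2: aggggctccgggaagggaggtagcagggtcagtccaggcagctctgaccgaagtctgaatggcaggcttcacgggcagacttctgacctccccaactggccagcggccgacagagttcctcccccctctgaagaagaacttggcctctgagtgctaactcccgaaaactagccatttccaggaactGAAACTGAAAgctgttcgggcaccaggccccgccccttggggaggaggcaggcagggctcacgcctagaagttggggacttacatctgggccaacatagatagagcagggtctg
Bst2: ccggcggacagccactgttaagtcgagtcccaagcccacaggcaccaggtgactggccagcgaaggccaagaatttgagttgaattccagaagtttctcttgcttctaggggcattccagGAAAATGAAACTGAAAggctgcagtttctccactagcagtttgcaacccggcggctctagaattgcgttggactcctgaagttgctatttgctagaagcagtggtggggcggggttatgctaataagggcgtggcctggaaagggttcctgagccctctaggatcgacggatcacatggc
Ifit3 and Bst2 carried 2 matches each, which overlap in Bst2, and Gbp2 and Irgm2 carried 1.

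The guanylate-binding proteins, GTPases that coat intracellular pathogens, had the largest share of members lower in LG/J of the interferon lists: 4 of 6, against 5.62% of all genes, with a list median of -2.07. Gbp2 read 8.53, 7.78, 6.82 and 7.03 in LG/J, against 11.49, 12.18 and 12.35 in BL6 (-4.44 ± 0.26). Gbp7 read 5.80, 5.56, 5.43 and 5.39 in LG/J, against 9.40, 10.02 and 10.68 in BL6, at least 16.9-fold lower. Gbp3 was at least 5.91-fold lower and Gbp8 fell by 1.22 ± 0.24 (-0.93 after quantile normalization, no longer called), while Gbp4 overlapped between the strains (-0.12 ± 0.18). The immunity-related GTPases, which act on the same pathogen-holding vacuoles, were lower in 4 of 10 members (median -0.48). Irgm2 read 6.27, 6.07, 5.30 and 6.34 in LG/J, against 8.48, 9.10 and 9.45 in BL6 (-3.06 ± 0.25), and Igtp was at least 3.19-fold lower. Irgm1, a regulator of the other family members, fell by 1.41 ± 0.33, and its ranges met, at 9.70 to 10.28 in LG/J and 10.23 to 12.61 in BL6.

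The IFIT and OAS families, which bind viral RNA and activate its degradation, were lower in 7 of 18 members (median -0.50). Ifit3 read 9.54, 9.99, 9.15 and 8.85 in LG/J, against 12.67, 12.96 and 13.20 in BL6 (-3.58 ± 0.21). Ifit2 (-3.11 ± 0.29) and Ifit3b (-3.27 ± 0.21) were non-overlapping as well, and Ifit1 was at least 2.26-fold lower. Among the p200 and nucleic acid sensors 5 of 22 were lower (median -0.33). Ifih1, which encodes the cytosolic sensor of double-stranded RNA MDA5, read 4.96, 4.60, 4.97 and 5.05 in LG/J, against 8.38, 8.94 and 9.36 in BL6, at least 8.30-fold lower. Tlr3, the endosomal sensor of the same ligand, fell by 1.16 ± 0.19.

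Of the receptors and transcription factors, 7 of 22 were lower and none was called higher (median -0.22). Irf7, the factor that amplifies type I interferon transcription, read 8.01, 7.89, 7.66 and 7.24 in LG/J, against 9.63, 10.25 and 10.88 in BL6 (-2.61 ± 0.32). Irf1, a mediator of interferon-γ responses, read 8.57, 9.21, 9.56 and 10.04 in LG/J, against 10.28, 10.69 and 11.90 in BL6 (-1.53 ± 0.32). Ifngr1, the ligand-binding chain of the interferon-γ receptor, fell by 1.53 ± 0.12 with no overlap. Irf2, an antagonist of Irf1, fell by 1.37 ± 0.26 with overlapping arrays. Usp18, the feedback inhibitor of type I signalling, fell by 2.18 ± 0.27. The members at the core of the cascade were not called: Ifnar2, a chain of the type I receptor (0.23 ± 0.18), Stat2 (-0.03 ± 0.19) and Irf9 (-0.18 ± 0.17), which join into the complex that binds the ISRE, overlapped between the strains.

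Among 36 interferon effectors 11 were lower and 1 was higher (median -0.69). Bst2, which tethers budding virions to the cell, read 7.20, 7.14, 6.11 and 5.93 in LG/J, against 9.06, 9.60 and 10.66 in BL6 (-3.12 ± 0.29). Slfn2, a Schlafen protein known for lymphocyte quiescence, was the exception, at 9.73, 8.83, 11.02 and 10.55 in LG/J, against 7.22, 7.68 and 8.51 in BL6 (2.24 ± 0.31). Ube2l6, the enzyme that conjugates ISG15, was at least 1.15-fold lower, whereas Isg15 itself was not above the negative controls in either strain. With the granulocyte level in the model, 3 of 6 guanylate-binding proteins, 3 of 10 immunity-related GTPases, 4 of 18 IFIT and OAS members, 2 of 22 sensors, 3 of 22 receptors and factors and 4 of 36 effectors were lower. Among the genes named, calls were lost for Gbp8 (-0.42, adjusted p = 0.66), Ifit1 (-1.75, 0.232), Tlr3 (-0.83, 0.232), Irf2 (-0.23, 0.835), Usp18 (-1.67, 0.0743) and Ube2l6, whose difference turned to 0.16 (0.914).

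**Figure D3:**
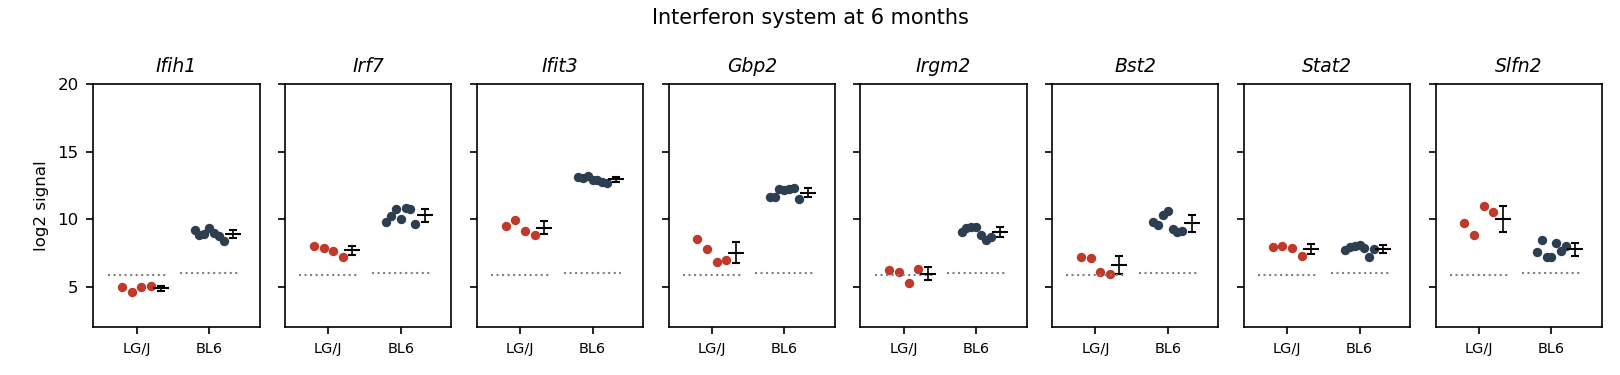
Each panel gives the log2 signal of 1 gene of the interferon system at 6M, with 1 point per array (LG/J left, 4 arrays; BL6 right, 7 arrays), the mean and SD, and the negative control levels as dotted lines. Ifih1, Irf7, Ifit3, Gbp2, Irgm2 and Bst2 lie lower in LG/J without overlap, Stat2 overlaps and Slfn2 lies higher.

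Antigen presentation was partly involved, with 20% of the class I and 20% of the class II genes called, against 8.15% of all genes. For the complement list the share was 16%. Of 20 genes of MHC class I and peptide loading 4 were lower: H2-D1, a classical class I heavy chain (-1.77 ± 0.25), H2-M3, which presents bacterial peptides (at least 1.21-fold), Tap2, a peptide transporter (-1.05 ± 0.16), and Psmb8, an immunoproteasome subunit (-1.07 ± 0.15). The light chain B2m overlapped, at 15.37 to 15.98 in LG/J and 15.69 to 16.00 in BL6. MHC genes vary in sequence between inbred strains, and the probe match to each strain was not tested. Of 10 class II genes 2 were lower, and H2-DMb1, a chain of the peptide exchanger H2-DM, was the clearest, at 5.80, 6.04, 5.92 and 6.09 in LG/J, against 8.86, 9.82 and 10.68 in BL6 (-3.72 ± 0.26). Under the granulocyte model 1 of the 10 was lower. H2-Ab1, a presenting class II chain, read 9.66 to 10.19 in LG/J and 9.33 to 9.87 in BL6, overlapping. The calls of Psmb8 and Tap2 lay near the 2-fold threshold: without LG/J array 4 their differences were -0.96 and -0.98, and without LG/J array 1 that of Tap2 was -0.97, and both genes were under 2-fold after quantile normalization (-0.80 and -0.90) and median centring (-0.93 and -0.91). Of 25 complement genes, Cd59a, the surface inhibitor of the membrane attack complex, was 2.64 ± 0.23 higher, at 12.49 to 12.81 in LG/J and 9.52 to 10.70 in BL6, and C1s1, a protease of the first complement component, fell by 1.69 ± 0.23. Tnfsf10, the death ligand TRAIL, read 6.11, 6.79, 7.19 and 7.60 in LG/J, against 8.70, 9.56 and 10.38 in BL6 (-2.62 ± 0.28), and its call was lost with the granulocyte level in the model (-1.61, adjusted p = 0.0787).

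TGF-β and BMP signalling differed at several steps. These secreted ligands bind serine/threonine kinase receptors that phosphorylate SMAD proteins, and in BMP signalling the Id genes, inhibitors of basic helix-loop-helix factors, are among the most direct targets. Of 20 ligands 3 were higher and 3 lower. Called were 30% of the ligands, 7.69% of the receptors, 16.7% of the antagonists and 28.6% of the effectors, against 8.15% of all genes. Tgfb1 read 11.39, 11.41, 11.47 and 11.54 in LG/J, against 8.74, 9.41 and 9.71 in BL6 (2.10 ± 0.33). Tgfb2 read 14.90, 15.58, 14.86 and 14.27 in LG/J, against 11.57, 12.98 and 13.58 in BL6 (2.04 ± 0.29). Both were non-overlapping, while Tgfb3 overlapped (0.31 ± 0.22). Bmp6 read 8.60, 9.17, 10.27 and 8.86 in LG/J, against 7.37, 7.76 and 8.12 in BL6 (1.49 ± 0.29). Bmp7, a ligand that promotes proteoglycan synthesis in disc cells, moved the other way, at 6.31, 6.70, 6.49 and 6.12 in LG/J, against 8.55, 9.14 and 9.49 in BL6 (-2.69 ± 0.28). Its LG/J arrays lay just above the negative controls. Bmp4 was not above them in either strain.

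Of 13 receptors only Acvr1c, the type I receptor ALK7, was called, at least 1.81-fold lower, and Bmpr2, the type II receptor of the BMPs, overlapped at 13.05 to 13.37 in LG/J and 13.06 to 13.33 in BL6. Of 18 antagonists, Sostdc1, a secreted inhibitor of BMP and Wnt ligands, was higher, at 15.15, 15.72, 15.51 and 15.86 in LG/J, against 14.08, 14.37 and 14.91 in BL6 (1.17 ± 0.18). Fstl1, a follistatin-like protein that binds BMPs, was 1.47 ± 0.23 higher without overlap. Smad6, the inhibitory SMAD of the BMP branch, fell by 1.07 ± 0.17, a call lost under quantile normalization (-0.79) and median centring (-0.93). Smad7 was not above the negative controls.

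Of 14 effectors 1 was higher and 3 were lower. Smad1, the SMAD that carries BMP signals, read 10.21, 10.34, 9.86 and 10.11 in LG/J, against 7.98, 8.37 and 8.95 in BL6 (1.72 ± 0.19), without overlap. The Id genes moved the opposite way. Id2 read 11.78, 12.63, 11.99 and 12.19 in LG/J, against 15.14, 15.45 and 16.36 in BL6 (-3.47 ± 0.21). Id1 read 10.88, 11.30, 10.60 and 10.68 in LG/J, against 13.26, 14.10 and 15.07 in BL6 (-3.30 ± 0.32). Id3 read 7.08, 6.54, 6.70 and 8.11 in LG/J, against 10.01, 10.92 and 11.60 in BL6 (-3.81 ± 0.36). Id4 did not share this, at 16.73 to 16.95 in LG/J and 16.23 to 16.85 in BL6 (0.31 ± 0.21). With the granulocyte level in the model, Tgfb1 kept a difference of 1.90 and Bmp7 one of -1.84 but neither passed (adjusted p = 0.111 and 0.0504), and Acvr1c was lost (-1.34, 0.0518).

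**Figure D4:**
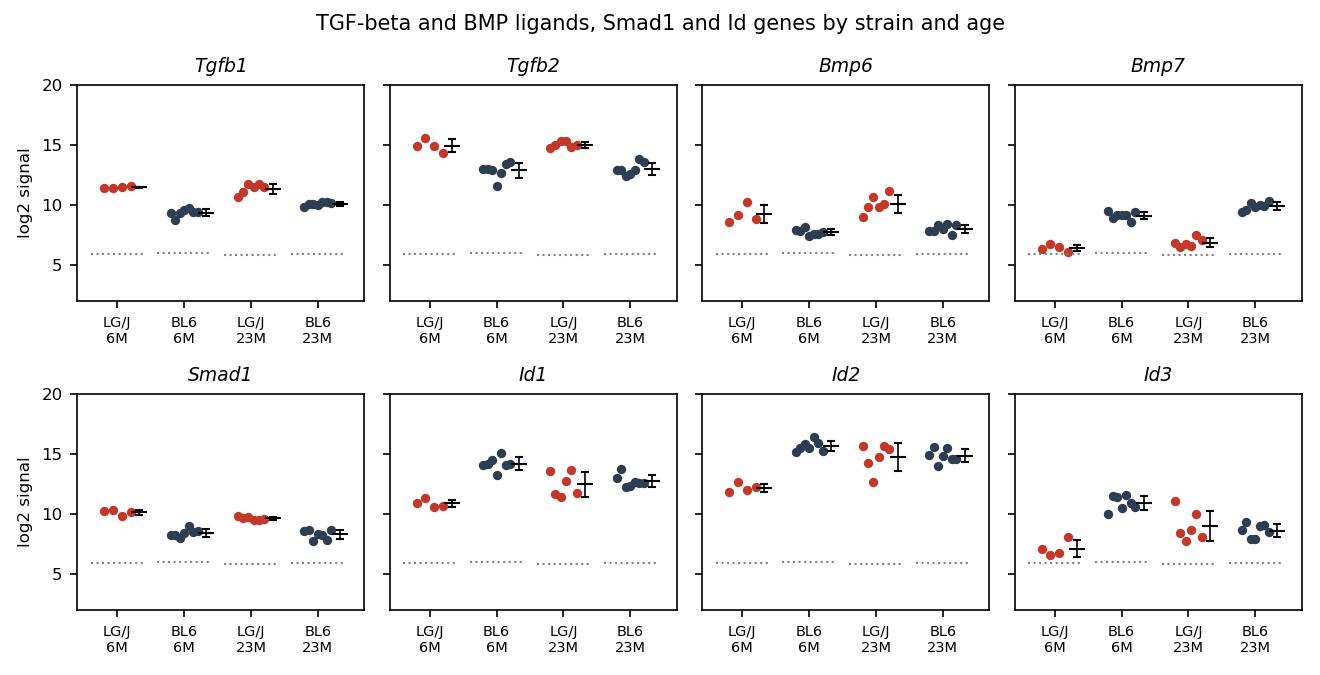
Each panel gives the log2 signal of 1 gene in 4 groups (LG/J 6M, BL6 6M, LG/J 23M, BL6 23M; 4, 7, 6 and 7 arrays), with 1 point per array, the mean and SD, and the negative control levels as dotted lines. Tgfb1, Tgfb2, Bmp6 and Smad1 are higher and Bmp7 is lower in LG/J at both ages, while Id1, Id2 and Id3 are lower in LG/J at 6M and overlap at 23M.

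Other developmental pathways differed in their share of called genes, against 8.15% of all genes. It was 27.8% for Wnt receptors, 15.4% for the hedgehog pathway, 8.7% for Wnt ligands and 3.85% for the FGF pathway. Of 18 Wnt receptors, Fzd3 (at least 2.20-fold), Fzd8 (1.02 ± 0.34) and the R-spondin receptor Lgr4 (1.26 ± 0.26) were higher and Fzd2 (-1.39 ± 0.18) and Ror1 (-1.50) were lower. Lgr4 read 14.22 to 14.78 in LG/J and 12.78 to 13.55 in BL6. The Fzd8 call was lost without LG/J array 1, 3 or 4 (adjusted p = 0.0557, 0.0692 and 0.0527) and without BL6 array 7 (difference 0.99), and under the granulocyte model Fzd2 (-1.12, adjusted p = 0.0807), Fzd8 (1.07, 0.433) and Ror1 were not called, which left 2 receptors higher and 0 lower. Of 23 Wnt ligands, the non-canonical Wnt11 (at least 1.59-fold) and Wnt5b (at least 2.28-fold) were lower, Wnt5b not after quantile normalization (-0.98). Of 26 FGF pathway genes only Etv5, a transcription factor induced by FGF signalling, was called, at 11.90, 11.33, 12.63 and 11.24 in LG/J, against 8.99, 9.71 and 10.04 in BL6 (2.14 ± 0.33). In the hedgehog pathway Hhip, which traps hedgehog ligands, was at least 1.81-fold higher and the co-receptor Gas1 fell by 1.67 ± 0.31, and Gas1 did not pass with the granulocyte level in the model (-1.59, adjusted p = 0.158). The ligand Shh, which NP cells inherit from the notochord, lay under 2-fold (-0.73 ± 0.21).

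The share of called genes varied between the matrix lists, against 8.15% of all genes. It was 23.8% for elastic fibres and crosslinking, 20.6% for proteoglycan core proteins and 13% for matricellular proteins. For chondrocyte markers it was 12.5%, and for glycosaminoglycan synthesis 2.86%. Of 24 chondrocyte markers 3 were lower. Ucma, a secreted protein of cartilage that inhibits calcification, read 6.49, 7.10, 7.92 and 5.92 in LG/J, against 9.50, 10.57 and 11.20 in BL6 (-3.60 ± 0.36). Cytl1, a cytokine-like protein of chondrocytes, read 11.63, 11.45, 13.20 and 11.30 in LG/J, against 14.17, 14.81 and 15.38 in BL6 (-2.83 ± 0.44). Snorc, a cartilage transmembrane proteoglycan, fell by 1.82 ± 0.22. Col2a1, the main collagen of cartilage and NP, overlapped (0.50 ± 0.37), and so did Col10a1, a collagen of hypertrophic chondrocytes, which ranged from 6.51 to 10.93 over the LG/J arrays and from 6.42 to 8.11 over the BL6 arrays. With the granulocyte level in the model Ucma alone of the 3 was still called (-1.41, adjusted p = 0.369 for Cytl1 and -1.21, 0.111 for Snorc).

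Of 34 proteoglycan core proteins 5 were lower and 2 higher (median -0.06). Gpc6, a glypican that carries heparan sulphate at the membrane, read 8.19, 8.22, 8.10 and 8.01 in LG/J, against 11.62, 11.84 and 12.18 in BL6 (-3.74 ± 0.26). Prelp, a leucine-rich protein that anchors basement membranes to collagen, read 14.33, 14.19, 14.40 and 14.21 in LG/J, against 15.87, 16.24 and 16.31 in BL6 (-1.90 ± 0.16). Podn, another leucine-rich proteoglycan, was at least 2.72-fold lower. On the other side, Srgn, the proteoglycan of secretory granules, read 15.57, 15.74, 15.57 and 15.11 in LG/J, against 13.22, 13.46 and 13.95 in BL6 (1.96 ± 0.20). Sdc3, a syndecan of cartilage and nerve, was 1.65 ± 0.26 higher, and did not pass with the granulocyte level in the model (1.31, adjusted p = 0.169). Biglycan, Bgn, overlapped (-0.19 ± 0.40). Only 1 of 35 genes of glycosaminoglycan synthesis was called, Chpf, which polymerizes chondroitin (1.04, adjusted p = 0.00128), and its call did not hold under the granulocyte model, where 3 of the 34 core proteins were lower and 1 higher.

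Of 21 genes of elastic fibres and crosslinking 3 were higher and 2 lower (median -0.04). Plod2, the lysyl hydroxylase that prepares stable crosslinks, read 13.26, 13.04, 12.96 and 12.46 in LG/J, against 10.97, 11.29 and 11.77 in BL6 (1.61 ± 0.24). Loxl3, a lysyl oxidase that forms them, read 14.68, 14.77, 14.18 and 14.25 in LG/J, against 12.62, 12.76 and 13.74 in BL6 (1.51 ± 0.28). Fbln2, an elastic fibre glycoprotein, was 1.61 ± 0.18 higher, while Mfap5, a microfibril protein, fell by 1.70 and Ltbp1, which stores latent TGF-β in the matrix, fell by 1.03 ± 0.20. The Ltbp1 call was lost without LG/J array 1 (-0.94) or 3 (-0.996) and after median centring (-0.88). Of 23 matricellular proteins, Ccn5, of the CCN family of growth regulators, fell by 2.55 ± 0.21 and Smoc1, a calcium-binding modulator of BMP signals, fell by 1.52 ± 0.19, while Tgfbi, an integrin-binding protein induced by TGF-β, was 1.53 ± 0.36 higher. Under the granulocyte model Smoc1 was -1.02 (adjusted p = 0.119) and Tgfbi 1.67 (0.216), neither called.

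Of 33 genes of mineralization and phosphate handling, 2 were higher and 3 lower (15.2% called, against 8.15% of all genes). Ibsp, the bone sialoprotein that nucleates hydroxyapatite, read 7.93, 7.89, 9.08 and 8.76 in LG/J, against 11.36, 12.31 and 13.60 in BL6 (-4.14 ± 0.45). Tnfrsf11b, the decoy receptor osteoprotegerin that blocks osteoclast formation, read 16.81, 16.57, 16.17 and 16.25 in LG/J, against 14.41, 14.97 and 15.58 in BL6 (1.52 ± 0.21). Stc2, a stanniocalcin hormone of calcium and phosphate balance, read 10.98, 10.91, 11.56 and 11.23 in LG/J, against 7.57, 7.84 and 8.52 in BL6 (3.21 ± 0.31). All 3 were non-overlapping. Entpd1, an ectonucleotidase, fell by 1.24 ± 0.19, a call lost under quantile normalization (-0.99) and with the granulocyte level in the model (-0.63, adjusted p = 0.354), and the third lower member was Anxa6, an annexin of matrix vesicles (-1.02, adjusted p = 0.00132). Mgp, a calcification inhibitor, overlapped (-0.49 ± 0.25), and Alpl, the mineralizing phosphatase, was not above the negative controls.

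Contractile genes moved in opposite directions. Acta2, smooth muscle actin, read 10.66, 11.33, 10.47 and 9.45 in LG/J, against 14.58, 15.54 and 16.19 in BL6 (-4.97 ± 0.47). Tagln, an actin crosslinker of the same cells, fell by 1.70 ± 0.32, and Myh11, smooth muscle myosin, was 1.16 ± 0.32 higher at 9.71 to 10.88 in LG/J and 8.73 to 9.71 in BL6. Of the 9 smooth muscle and pericyte markers these were the only ones called (33.3%, against 8.15% of all genes). Under the granulocyte model Tagln was -0.84 and not called (adjusted p = 0.491). The Myh11 call was lost without LG/J array 4 (0.99), with Y-linked signal in the model (0.96) and without the BL6 arrays that carried it (adjusted p = 0.0566).

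Desmosomes anchor keratin filaments, which NP cells hold in abundance. Of 47 genes of cadherins, desmosomes and tight junctions 7 were lower and 2 higher (median -0.32). That is 19.1% called, against 8.15% of all genes. Dsc3, a desmosomal cadherin, read 11.02, 11.27, 11.22 and 11.54 in LG/J, against 14.46, 14.79 and 15.19 in BL6 (-3.53 ± 0.22). Pkp4, a plakophilin-related catenin, read 8.56, 8.75, 8.78 and 8.79 in LG/J, against 11.37, 11.62 and 11.90 in BL6 (-2.92 ± 0.19). Dsg2, the partner cadherin of desmosomes, read 11.49 to 11.90 in LG/J and 12.73 to 13.41 in BL6 (-1.40 ± 0.21), and Cdh4, R-cadherin, fell by 3.28 ± 0.41. Cdh2, the N-cadherin that marks NP cells, overlapped (0.23 ± 0.16). The higher members were Cdh11, a mesenchymal cadherin (1.22 ± 0.16), and Gja1, the gap junction protein connexin 43 (1.03 ± 0.17). Gja1 lay near the threshold, at 0.93 without LG/J array 1, 1.00 without BL6 array 5 and 0.99 without BL6 array 7, and at 0.40 with the granulocyte level in the model (adjusted p = 0.516), where 6 of the list were lower and 1 higher. Lgals1, a galectin that binds matrix glycans, read 16.87, 16.71, 16.65 and 16.67 in LG/J, against 14.40, 14.77 and 15.21 in BL6 (1.99 ± 0.20). The integrin chain Itga7, a laminin receptor (1.63 ± 0.27), and the integrin-like Itgbl1 (9.67 to 11.14 in LG/J and 8.93 to 9.20 in BL6) were higher as well.

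Axon guidance molecules, which steer nerves and vessels and which disc cells also secrete, were lower in 5 of 33 ligands and 5 of 32 receptors and higher in 3 ligands and 1 receptor. That is 24.2% of the ligands and 18.8% of the receptors called, against 8.15% of all genes. Slit2 read 6.56, 7.17, 6.52 and 7.04 in LG/J, against 8.76, 9.60 and 10.31 in BL6 (-2.81 ± 0.22). Slit3 read 11.91, 11.48, 11.44 and 11.22 in LG/J, against 12.93, 13.23 and 13.34 in BL6 (-1.66 ± 0.23). Both encode repulsive ligands and neither overlapped. Sema3d, a secreted semaphorin, moved the other way, at 14.68, 14.94, 14.84 and 14.45 in LG/J, against 11.85, 12.35 and 12.79 in BL6 (2.36 ± 0.20). Ntn4, a netrin of basement membranes, was 1.95 ± 0.40 higher. Among receptors, the netrin receptors Unc5b (-1.47 ± 0.15) and Unc5c (at least 2.35-fold lower) and the ephrin receptor Epha4 (-1.88 ± 0.23) fell without overlap. The semaphorin receptors Plxna2 (-1.46 ± 0.34) and Nrp2 (-1.25 ± 0.22) fell too. With the granulocyte level in the model their differences were -1.65 and -1.38 and did not pass (adjusted p = 0.184 and 0.0782), and 2 ligands and 3 receptors were lower and 2 ligands and 0 receptors higher.

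In energy metabolism, differences were found in the hypoxia response and in the gate to the mitochondria. Of 30 glycolytic genes 3 were higher and 1 lower (13.3% called, against 8.15% of all genes). Ldha, lactate dehydrogenase, was 0.60 ± 0.13 higher without overlap but under 2-fold. Under the granulocyte model 2 glycolytic genes were higher and 2 lower. Pdk4, a kinase that shuts off pyruvate dehydrogenase when fat is burned, read 5.98, 6.09, 5.99 and 5.82 in LG/J, against 9.11, 9.99 and 10.58 in BL6 (-3.97 ± 0.32). Its relative Pdk2 was 1.10 ± 0.20 higher, and that call was lost without the BL6 arrays that carried Y-linked signal (0.92), with that signal in the model (0.97) and with the granulocyte level in the model (1.10, adjusted p = 0.136). Of 18 hypoxia response genes 3 were higher and none lower (16.7% called, against 8.15% of all genes). Car9, the tumour-type carbonic anhydrase induced by HIF-1, read 12.62, 11.40, 11.67 and 11.56 in LG/J, against 9.68, 10.14 and 10.38 in BL6 (1.74 ± 0.20). Adm, the peptide adrenomedullin, read 14.15, 13.57, 12.38 and 12.21 in LG/J, against 9.88, 10.78 and 11.69 in BL6 (2.15 ± 0.44), and was 0.32 with the granulocyte level in the model (adjusted p = 0.865). Ddit4, an inhibitor of mTOR, was 1.99 ± 0.66 higher with overlapping arrays, and its call was lost without LG/J array 2, 3 or 4 (adjusted p = 0.0532, 0.0762 and 0.061).

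In lipid handling, Fabp5, a fatty acid carrier, read 9.81, 9.03, 9.24 and 9.00 in LG/J, against 6.31, 6.85 and 7.41 in BL6 (2.45 ± 0.26), and was not called with the granulocyte level in the model (1.27, adjusted p = 0.0984). Lpl, lipoprotein lipase, was 1.56 ± 0.19 higher, at 7.59 to 7.98 in LG/J and 5.78 to 6.82 in BL6. Of 19 genes of cholesterol synthesis and uptake 3 were higher and 1 lower (21.1% called, against 8.15% of all genes). Among the higher was Stard4, a sterol carrier (1.80, adjusted p = 1.23e-07). Dhcr7, the last enzyme of the route, was the lower one (-1.37, adjusted p = 4.64e-05). For fatty acid uptake and synthesis the share called was 12.9%. Under the granulocyte model 1 of the 19 was higher and none lower, so Dhcr7 was not called, and of 31 genes of fatty acid uptake and synthesis 1 was higher, against 3 without that term.

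Of 47 genes of detoxification and methyl transfer 5 were higher and 5 lower, with Inmt and Mtarc1 at the extremes. That is 21.3% called, against 8.15% of all genes. Gsto1, an omega-class glutathione transferase, was at least 4.89-fold lower, at 4.66 to 5.47 in LG/J and 7.93 to 8.44 in BL6. Cyp1b1, a cytochrome P450 of steroids and xenobiotics, fell by 2.07 ± 0.32, and its call was lost with the granulocyte level in the model (-1.69, adjusted p = 0.147). Aox1, aldehyde oxidase, was at least 2.56-fold higher. In the granulocyte model 3 of the list were higher and 4 lower.

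NP cells work under high osmotic pressure, and their ion transporters set cell volume. Of 32 chloride channel genes 4 were higher and 1 lower (median -0.10, that of all genes). That is 15.6% called, against 8.15% of all genes. Beside Clic5, Cftr, the cyclic AMP gated chloride channel, read 7.30, 7.80, 7.02 and 8.93 in LG/J, against 4.49, 4.88 and 5.20 in BL6, at least 3.36-fold higher. Clic1 was 1.30 ± 0.17 higher, and Clic4, of the same family, was -0.35 ± 0.13 and not called. Clcn5, an endosomal chloride and proton exchanger, was 1.06 ± 0.23 higher, and under 2-fold without LG/J array 2 (0.83), after quantile normalization (0.97), without the BL6 arrays that carried Y-linked signal (0.99) and with the granulocyte level in the model (0.89, adjusted p = 0.32), where 3 of the channels were higher and 0 lower. Of 19 genes of osmoregulation and water transport 2 were lower (10.5%, against 5.62% of all genes). They were Slc12a7, a potassium chloride cotransporter (-1.59 ± 0.22), and Slc6a12, a betaine transporter induced by hypertonicity (-1.45 ± 0.32). Slc6a12 lost its call with the granulocyte level in the model (-1.04, adjusted p = 0.401).

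Granulocyte markers were mostly lower in LG/J. Of 21 granulocyte markers 15 were lower and none higher (median -1.75), which is 71.4% called, against 8.15% of all genes. Ngp, a neutrophil granule protein, read 4.09, 5.19, 4.89 and 4.27 in LG/J, against 7.29, 11.64 and 13.74 in BL6, at least 50.1-fold lower. S100a8, a calcium-binding protein that fills neutrophil cytosol, was at least 38.9-fold lower and Retnlg at least 14.3-fold lower, in each case with LG/J arrays not above the negative controls. The BL6 arrays spread widely, with BL6 array 6 lowest in the marker mean. The covariate used above is the mean of this list, so with it in the model none of the list stayed lower. Of 14 erythroid markers 5 were lower (35.7%, against 5.62% of all genes). Among them were Alas2, the first enzyme of haem synthesis in red cells (at least 3.79-fold), and Slc4a1, the red cell anion exchanger (-1.86 ± 0.34). Another was Car2, a carbonic anhydrase that NP cells can also express (-2.82 ± 0.28). The mean level of the erythroid list was 6.68 to 6.73 in LG/J and 7.27 to 8.11 in BL6.

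Of 16 macrophage markers 4 were lower and 2 higher (37.5% called, against 8.15% of all genes), so the list did not move as one. Lyz2, lysozyme of macrophages and neutrophils, was at least 6.19-fold lower, and Fcer1g, an Fc receptor chain, was not above the negative controls in either strain. Cd163, the haemoglobin scavenger receptor of resident macrophages, read 8.28, 8.84, 8.35 and 8.00 in LG/J, against 5.85, 6.55 and 6.72 in BL6 (1.94 ± 0.22). Cd14, the endotoxin co-receptor, was 1.00 ± 0.23 higher, at the threshold, and under it without LG/J array 1 (0.92) or 3 (0.85) or BL6 array 1 (0.91) or 7 (0.95). None of 13 B cell and none of 13 T and NK cell markers was called, and their mean levels stayed below the negative controls, at 4.10 to 4.25 in LG/J and 4.35 to 4.59 in BL6 for B cells and 4.20 to 4.43 in LG/J and 4.69 to 4.94 in BL6 for T and NK cells. Krtdap, a keratinocyte differentiation protein, fell by 3.05 ± 0.33, Mki67, the proliferation marker, fell by 1.63 ± 0.35, and Mbp, of myelin, was at least 1.87-fold lower. Most members of their lists were not called: 2 of 14 keratinocyte markers, 2 of 28 mitosis genes and 1 of 5 Schwann cell markers were lower. These shares are 14.3%, 7.14% and 20%, against 5.62% of all genes called lower. With the granulocyte level in the model Lyz2, Slc4a1, S100a8 and Mki67 turned to 1.34, 0.49, 0.21 and 0.31 without passing, and Alas2 (-1.07, adjusted p = 0.376), Mbp (-1.14, 0.175) and Cd14 (0.62, 0.505) were not called, leaving 1 erythroid marker lower and, of the macrophage markers, 0 lower and 1 higher. This model separates the granulocyte level poorly from strain, and the share of blood cells in the strain difference of the other genes was not otherwise tested.

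The comparison was repeated at 23M, in mice whose arrays were not used at 6M. There, 9.48% of genes were called, and 1140 of the 1589 genes called at 6M (71.7%) were called again in the same direction, 61.7% of the 1849 genes called at 23M. A further 16 were called in the opposite direction, and 1545 of the 1589 kept their sign. Over all genes the differences at the ages correlated at 0.829 (Pearson) and 0.808 (Spearman), a description across genes that share a platform and the strain genomes. The titles at 23M carry the same date-like string for each strain as at 6M. Strain and whatever that string marks therefore cannot be told apart at either age, and both would recur at 23M. Inmt (-12.35), Mtarc1 (7.51), Man2b1 (-6.15), Pttg1 (-5.73), Gbp7 (-3.96), Ifih1 (-3.94) and Ifit3 (-3.76) were close to their values at 6M, while Clic5 was 6.03, against 7.15 at 6M. The Y-linked mean was high on all 6 LG/J arrays at 23M and low on all 4 at 6M, so age and sex cannot be told apart within LG/J.

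The strain difference itself changed between 6M and 23M for 83 genes (0.426% of those tested), with 56 more positive and 27 more negative at 23M. Because the LG/J arrays also differ in Y-linked signal between the ages, such a change cannot be assigned to age rather than sex. The 16 genes called in opposite directions were all lower in LG/J at 6M and higher at 23M, and 12 of them were among the 83. These 12 included Fos, Fosb, Junb, Egr1, Ier2 and Zfp36, immediate early genes that cells switch on within minutes of a stimulus. Fos read 10.00, 12.35, 15.91 and 16.88 in LG/J at 6M, against 15.94, 16.89 and 17.91 in BL6 at 6M. At 23M Fos read 15.86, 17.73 and 18.36 (lowest, median and highest of 6) in LG/J, against 14.01, 15.78 and 16.76 in BL6. The LG/J arrays at 6M were thus spread over a wide range, with arrays 1 and 2 low and arrays 3 and 4 near the BL6 level, and the same order of these arrays held for Fosb, Junb, Egr1, Ier2 and Zfp36. At 6M the Zfp36 call was lost without LG/J array 1 or 2 (-1.13 and -1.28) and without BL6 array 2, 5 or 7 (adjusted p = 0.063, 0.0728 and 0.0628), and that of Junb without LG/J array 1 (-1.54, adjusted p = 0.0511). The 6M difference of Fos was -1.86 without LG/J array 1 (adjusted p = 0.0498). Under the granulocyte model none of the 6 passed at 6M, with differences of -4.71 for Fosb (adjusted p = 0.11), -2.39 for Junb (0.354), -2.28 for Egr1 (0.201), -2.17 for Ier2 (0.327), -1.54 for Fos (0.678) and -0.86 for Zfp36 (0.774).

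The Id genes changed differently. Their LG/J arrays at 6M lay close together, and the strain difference was gone at 23M: Id2 read 12.65, 15.04 and 15.65 in LG/J at 23M, against 13.95, 14.84 and 15.59 in BL6. The change of the strain difference was 3.34 ± 0.53 for Id2 (adjusted p = 0.00257), 3.01 ± 0.49 for Id1 (0.003) and 4.20 ± 0.61 for Id3 (0.000908). Socs3, the feedback inhibitor of cytokine signalling, was -3.10 ± 0.74 at 6M and 3.55 ± 0.95 at 23M, a change of 6.66 ± 1.43 (adjusted p = 0.0281) that was lost without LG/J array 1 or 2 or BL6 array 3 at 6M, and without LG/J array 2 or 5 or BL6 array 6 or 7 at 23M (adjusted p = 0.051 to 0.086). At 6M its difference under the granulocyte model was -4.02 and did not pass (adjusted p = 0.135). Sirpa, an inhibitory receptor of myeloid and neural cells, read 13.52, 13.29, 13.51 and 12.70 in LG/J at 6M, against 11.64, 11.81 and 12.09 in BL6, while at 23M the ranges were 12.74 to 13.36 in LG/J and 13.04 to 13.25 in BL6 (change -1.61 ± 0.18, adjusted p = 6.22e-05).

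Matrix and guidance genes were among those that became more negative. Col10a1 was 1.68 ± 0.68 at 6M, not called, and -2.74 ± 0.57 at 23M (change -4.42 ± 0.86, adjusted p = 0.0133). Slit3 was -1.66 at 6M and -3.14 at 23M (change -1.49 ± 0.23, adjusted p = 0.00205). Septin6, of the septin cytoskeleton, read 10.36 to 11.22 in LG/J and 11.26 to 11.66 in BL6 at 6M and, at 23M, 8.66 to 9.88 in LG/J and 10.96 to 11.66 in BL6. Adm and Tnfrsf11b, both higher in LG/J at 6M, did not differ by a call at 23M (0.06 and 0.16). The change of Adm was lost when LG/J array 1 or 2 at 6M, LG/J array 2, 5 or 6 at 23M or BL6 array 4, 6 or 7 at 23M was left out (adjusted p = 0.051 to 0.101), and that of Tnfrsf11b without LG/J array 1 or 2 at 6M (0.0555 and 0.0527). Without LG/J array 2 at 6M the strain difference of only 44 genes changed between 6M and 23M, and without BL6 array 5 at 23M that of 134 did. With the Y-linked mean in the model 43 changed, and Id1 (adjusted p = 0.055) and all of the immediate early genes named here but Ier2 were not among them.

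**Figure D5:**
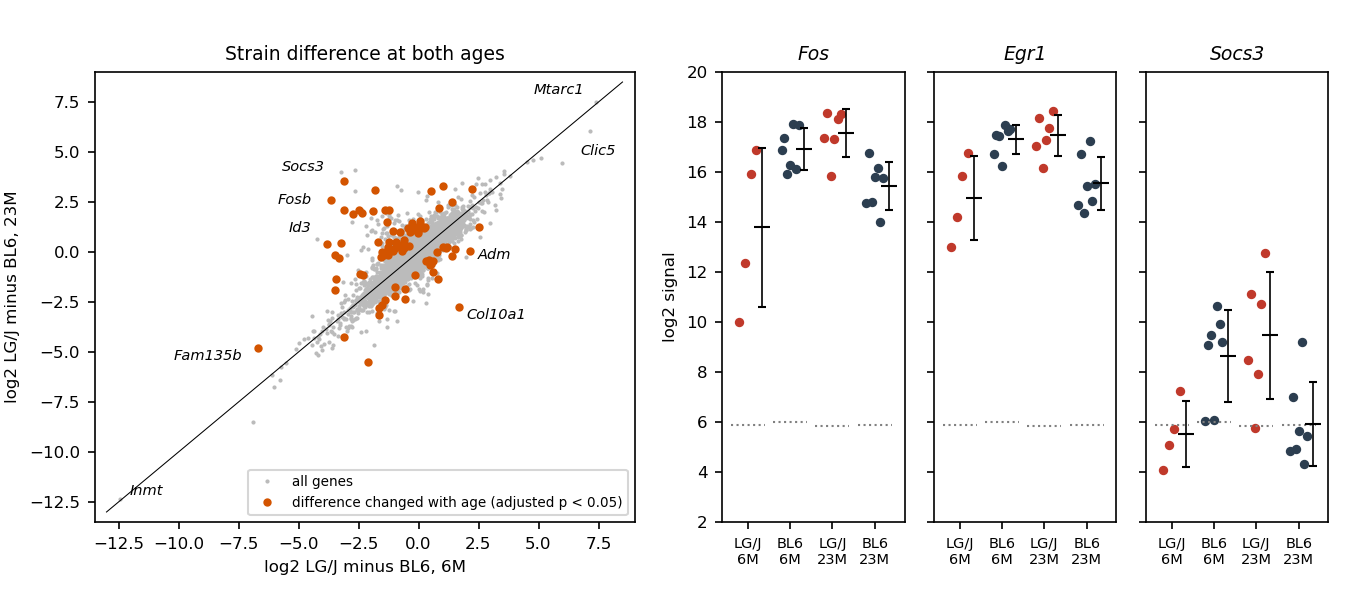
Left, the strain difference (log2 LG/J minus BL6) of each of 19505 genes at 23M against that at 6M, with the line of equality. The 83 genes in orange are those whose difference changed between 6M and 23M, where age and sex cannot be told apart within LG/J. Right, the log2 signal of Fos, Egr1 and Socs3 in 4 groups with 1 point per array, the mean and SD, and the negative control levels as dotted lines; the LG/J arrays at 6M spread from 10.00 to 16.88 for Fos.

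Some called genes were neighbours. Of the called genes with a tested neighbour, 169 of 1588 (10.6%) had the next tested gene on the chromosome called in the same direction. Over all genes, 2.52% were called higher and 5.62% lower. There were 25 runs of 3 or more such genes. The longest, of 18, 9 and 8 genes, were all or mostly vomeronasal receptors and make up part of the 169. The longest outside the vomeronasal receptors held 6 genes lower in LG/J, Ifit2, Ifit3, Ifit1bl1, Ifit3b, Ifit1bl2 and Ifit1. Gbp7, Gbp3 and Gbp2 formed a run of 3, as did Psmb8, Tap2 and H2-Ob within the MHC, S100a7a, S100a8 and S100a9, and Mboat2, Kidins220 and Id2, all lower. Sh3bp1, Pdxp and Lgals1 formed a run of 3 higher genes. Mboat2, Kidins220, Sh3bp1, Pdxp and S100a7a are named for their place and were chosen after their values were seen. Members of one family share sequence, so their probes are not independent measurements.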

How the data were processed

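Total RNA of nucleus pulposus tissue was labelled with biotin and hybridised to Clariom S mouse arrays, 1 animal per array. The authors normalized the arrays with robust multi-array averaging (sst-rma in Expression Console, RMA in the labels) and deposited log2 values, which were used as given, and the genome build behind the probes was not given in the sources used here. Of 28846 rows, 6640 were controls and 2634 named no single gene, and the remaining 19572 gave 19505 genes after the row with the highest mean was kept for 55 genes. RMA is meant to align the distributions of arrays, and it shrinks differences of dim probes. Over the genes compared, the array medians at 6M still lay at 6.25 to 6.34 in LG/J and 6.43 to 6.49 in BL6. An offset between the strains thus remained in the values used. The number of arrays limits the precision. LG/J and BL6 at 6M were compared with limma 3.58.1 (R 4.3.3) on 17 arrays in 3 strain groups, and the strain differences at 6M and 23M on 24 arrays in 4 groups, with eBayes moderation. The steps were tested on simulated data first.

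A bound ("at least N-fold") is given where the dimmer strain's mean lay below its negative control level. It sets the brighter strain's mean against a floor for the dimmer strain. That floor averages, over the dimmer strain's arrays, the gene's signal or, where higher, the array's median of 5222 negative control rows. Genes named are the 15 with the largest difference in each direction, of each of 62 lists up to 6 called members a direction, the 3 brightest and its defining members, genes the study shows for this comparison, the 8 in each direction whose strain difference changed most with age, and close paralogs. The members and lists were chosen with earlier results of these data known. Alternatives were other sample sets, variance models, array weights, normalizations, filters, fold thresholds, the array number as a replicate block, the granulocyte and Y-linked means as covariates, and each array left out, and the arrays with Y-linked signal were left out as a choice made after seeing the data. Promoter sequences and gene order are RefSeq's (GRCm38.p6).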

Additional observations from a re-analysis of the deposited data

Results flagged for a closer look

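In 15 of 388 groups of arrays checked, the gap between the highest or lowest array and its nearest neighbour took up an unusually large share of the group's range, about what chance alone gives (1 in 20). In LG/J the lowest array stood apart for Foxa1 (share 0.902), Podn (0.882) and Pkp4 (0.849), and the highest for Gja1 (0.902) and Mtarc1 (0.846), where the whole range was narrow. In BL6 the highest array stood apart for Inmt (0.647), Gsto2 (0.627), Gnal (0.626), Gbp8 (0.62), Isg15 (0.579) and Fcer1g (0.578). The lowest BL6 array stood apart for Gbp3 (0.656), Stat2 (0.596), Ube2l6 (0.589) and Tgfb1 (0.585).

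The strain difference of 22 named genes changed between 6M and 23M by limma's interaction test with adjustment over all genes. The difference (23M minus 6M, log2) became more positive for Socs3 (6.66), Fosb (6.27), Fos (5.23), Zfp36 (4.89), Ier2 (4.62), Junb (4.58), Egr1 (4.29), Id3 (4.20), Id2 (3.34), Id1 (3.01), Fam135b (1.91), Acvr1c (1.31) and Smad6 (1.10). It became more negative for Col10a1 (-4.42), Chad (-3.38), Dmrta1 (-2.14), Adm (-2.10), Septin6 (-1.77), Fxyd2 (-1.61), Sirpa (-1.61), Slit3 (-1.49) and Tnfrsf11b (-1.36). In 29 alternatives the change passed every time for Id2, Id3, Col10a1, Slit3, Ier2, Septin6 and Sirpa. It was lost in 18 of them for Dmrta1, 16 for Chad, 13 for Fxyd2, 11 for Adm and 9 for Socs3. Losses numbered 4 for Fos, Fosb and Junb, 3 for Zfp36, Smad6 and Tnfrsf11b, and 1 for Fam135b, Acvr1c, Id1 and Egr1. For Fos, Fosb, Junb and Zfp36 they included leaving out LG/J array 1 or 2 at 6M.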

How the results depend on the processing

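Of 156 named genes called, 13 lost the call with 1 or more of the 11 arrays left out, and 5 reversed in 1 alternative, the granulocyte covariate. Without a fold threshold 6223 genes were called (2215 higher, 4008 lower), at 1.5-fold 4529 (1538 and 2991) and at 4-fold 290 (69 and 221). Centring each array on its median raised the share of called genes that were higher to 47.1%, since the median difference then moved up by 0.15. It gave 719 genes higher and 807 lower, so the excess of lower genes depends on the normalization. After quantile normalization 1244 genes were called (501 higher, 743 lower), and 1192 of them were original calls. Quantile normalization ended the calls of Basp1 (-0.96), Fzd8 (0.97, adjusted p = 0.0534) and Cd14 (0.94) and, with the values given above, those of Smad6, Gbp8, Psmb8, Tap2, Entpd1, Clcn5 and Wnt5b on fold, and those of Zfp36 (-1.75, adjusted p = 0.0613) and Socs1 (-1.17, 0.0561) on p. With the granulocyte mean as a covariate 1020 genes were called (325 higher, 695 lower), 53 named genes lost their call, and S100a8 (0.21), Ube2l6 (0.16), Lyz2 (1.34), Slc4a1 (0.49) and Mki67 (0.31) reversed, none of them passing. Leaving out single arrays gave 1557 to 1663 calls, 478 to 524 higher, 1071 to 1139 lower and 30.4% to 31.5% higher. The number of genes whose strain difference changed between 6M and 23M was less stable. With single arrays left out it was 44 (without LG/J array 2 at 6M) to 134 (without BL6 array 5 at 23M). Of these, 32 to 99 were positive and 12 to 35 negative. With the Y-linked mean as a covariate the number was 43 (25 positive), and the cause was not tested. The array numbers shared by the strains did not pair the arrays (correlation of deviations -0.039, -0.026, -0.11 and 0.026), and with the number as a replicate block 1602 genes were called, against 1599 on the same 8 arrays without it. With 4 LG/J arrays, 42.8% of genes below the negative controls in both strains, and strain tied to a date-like string in the titles, small differences of dim genes are the least certain.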

Other observations

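Chemosensory receptors, which detect pheromones and odours, made up part of the calls on the lower side, above the share of all genes for the vomeronasal families only. These families were chosen after their values were seen, so no test is given. Of 201 vomeronasal type 1 receptors (Vmn1r) 43 were called lower and 1 higher in LG/J (21.9%), and 36 of the 43 were also lower at 23M. For 35 of the 44 the LG/J mean was not above the negative controls. The called members lay in runs along the chromosome, the longest of 18 genes, and their mean level was 5.00 to 5.12 over the LG/J arrays and 6.20 to 7.20 over the BL6 arrays. Of 120 type 2 receptors (Vmn2r) 16 were lower and none higher, which is 13.3% called. Of 1091 olfactory receptors 43 were lower and 4 higher, 4.31% called, under the 8.15% of all genes. Without the Vmn1r genes 1545 calls remained, 1054 of them lower.

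The Btbd35f genes, a mouse family with a BTB domain, were called higher in 16 of 22 members (72.7%, against 2.52% of all genes). None was called lower, and the median difference over the called members was 1.63. Their mean level was 8.93 to 9.52 over the LG/J arrays and 7.04 to 7.94 over the BL6 arrays, without overlap, and 7 of the 16 were called higher at 23M as well. Members of such families are near-identical in sequence, and how far their probes share signal was not tested.

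Nr1d1, the clock repressor REV-ERBα whose level swings over the day, read 13.81, 13.28, 12.67 and 13.59 in LG/J, against 14.57, 15.03 and 15.70 in BL6 (-1.76 ± 0.30), and was not called with the granulocyte level in the model (-2.02, adjusted p = 0.0632). It was the only one of 18 circadian genes called in that comparison. The time of tissue collection was not given in the sources used here.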
